A study of Mus musculus with 14 samples.

Results

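The extracellular matrix genes described here were a list of 40 genes chosen by symbol, comprising lecticans, link proteins, tenascins, SPARC family proteins, matrilins, laminin chains, other basement membrane components, interstitial matrix proteins, reelin, and matrix proteases with their inhibitors. All 40 were measured among 18193 genes, each gene being represented by its brightest probe set. RNA of fluorescence-sorted brain cells was hybridised to 14 Affymetrix MOE430 2.0 arrays, and values are log2 intensities throughout. The study sorted prospective neural stem cells, ependymal cells and astrocytes to compare their transcripts. All 5 groups came from 8-week-old hGFAP-eGFP mice, which carry enhanced green fluorescent protein (GFP) under the human GFAP promoter. The subependymal zone (SEZ) is the germinal layer beside the lateral ventricle. Its cells were sorted on GFP with prominin, a membrane protein (SEZ_GFPprom, n = 4), on GFP (SEZ_GFP, n = 2), on prominin (SEZ_Prom, n = 2) or on CD24, another surface antigen (SEZ_CD24, n = 2). GFP-positive cells of the diencephalon formed the remaining group (DIEC_GFP, n = 4). The labels call the SEZ groups sorted by GFP or prominin neural stem cells, SEZ_CD24 ependymal cells and DIEC_GFP astrocytes. They call the arrays biological replicates without saying whether separate animals were used, so that p-values reflect only how far these arrays differ among themselves. Because 4 of the 6 comparisons share SEZ_GFPprom, their results are not independent.

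The brain's interstitial matrix is built on hyaluronan, to which lectican proteoglycans bind. Link proteins stabilise that bond, and tenascins cross-link the other ends of the lecticans. Basement membranes are sheets of laminin and type IV collagen networks joined by nidogen and perlecan, and in the SEZ they also form fractones, branched structures that reach between the cells. Matrix metalloproteinases (MMP) and ADAMTS proteases cut these components, and tissue inhibitors of metalloproteinases (TIMP) restrain them.

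Several members lie beside each other in the mouse genome. In the RefSeq annotation of GRCm38.p6, no gene stood between Vcan and Hapln1, between Bcan and Hapln2, or between Ncan and Hapln4, so that these lecticans each neighbour a link protein gene. Col4a1 (minus strand) and Col4a2 (plus strand) start head to head, and their annotated starts overlap by 22 bases. These bases, at chr8:11312805-11312826 on the plus strand, are printed in the next lines because both chains of the collagen are described later. The 250 bases before the starts of Hapln2 (chr3:88027512-88027761, minus strand) and Spock1 (chr13:57908333-57908582, minus strand) are printed because these genes shared a pattern across the sorts and their windows overlap no other gene. In these upstream windows capitals mark matches on either strand to the CCAAT box (CCAAT), the TATA box (TATAAA), the GC box (GGGCGG), the core bound by SOX factors (ACAAT) or an E-box (CAGCTG), and no matches overlapped.
Col4a1 and Col4a2 starts: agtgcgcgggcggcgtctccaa
Hapln2 upstream: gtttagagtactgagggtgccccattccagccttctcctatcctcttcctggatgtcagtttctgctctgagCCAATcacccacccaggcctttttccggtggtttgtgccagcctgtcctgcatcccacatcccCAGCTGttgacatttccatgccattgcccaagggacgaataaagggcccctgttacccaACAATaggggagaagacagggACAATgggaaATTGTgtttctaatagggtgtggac
Spock1 upstream: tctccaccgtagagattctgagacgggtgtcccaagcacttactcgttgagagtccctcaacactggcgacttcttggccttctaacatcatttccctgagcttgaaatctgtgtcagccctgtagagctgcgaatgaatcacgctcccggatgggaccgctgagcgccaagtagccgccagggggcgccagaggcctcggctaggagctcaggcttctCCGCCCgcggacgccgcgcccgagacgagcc
The Hapln2 window held CCAAT at 178 bases, CAGCTG at 115 bases and ACAAT at 56, 35 and 25 bases before the start. The Spock1 window held a single match, to GGGCGG, at 31 bases before the start. Of 32851 promoter windows of this length in the RefSeq table, 33.9% held CCAAT, 12.4% TATAAA, 32.7% GGGCGG, 27.7% ACAAT and 13% CAGCTG. Windows were given for 30 of the 40 members. Of their 34 windows, 11 held CCAAT, 5 TATAAA, 21 GGGCGG, 5 ACAAT and 7 CAGCTG. These matches describe letters and show no binding.

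Each group was checked against marker genes of the cell types a sort could hold, as the summed intensity of each list on each array. Ependymal markers went against the label of SEZ_CD24. The 10 markers summed to 15237 to 26575 on the SEZ_GFPprom arrays, 395 to 590 on the SEZ_CD24 arrays, the lowest of any group, and 4840 to 9419 on the DIEC_GFP arrays. Neuroblast markers (10 genes) summed to 14190 to 14389 on the SEZ_GFP arrays and 14157 to 25759 on the SEZ_CD24 arrays. The neuroblast list includes Cd24a, the gene of the CD24 antigen, so its sums in SEZ_CD24 are not independent of the sort. Microglial markers (9 genes) summed to 12661 to 25415 on the SEZ_CD24 arrays. Some arrays differed from others of their group. SEZ_CD24 replicate 2 had an astrocyte marker sum (10 genes) of 4539, against 12572 in replicate 1, and the numbers of members called against SEZ_CD24 are also given without it. Microglial markers summed to 25415 in replicate 1 and 12661 in replicate 2. With 2 arrays it cannot be said which of them is the typical one. In DIEC_GFP the astrocyte sum was 32689, 32042, 33168 and 18343 in replicates 1 to 4, and replicate 4 also stood apart for mature neuron markers (10 genes, 420 against 3130 to 4078 in the other replicates) and choroid plexus markers (8 genes, 8730 against 1208 to 2382). Without it, 12 members were called in SEZ_GFPprom against DIEC_GFP and 9 in SEZ_GFP against DIEC_GFP. Choroid plexus markers summed to 1901, 4748, 421 and 7754 on the SEZ_GFPprom arrays, 9264 and 512 on the SEZ_GFP arrays, 12880 and 13426 on the SEZ_Prom arrays, and 14865 and 9212 on the SEZ_CD24 arrays. Of these 8 markers, 4 were lower in SEZ_GFPprom than in SEZ_Prom and 4 lower than in SEZ_CD24. Mature neuron markers summed to 2516 to 5683 in SEZ_GFPprom, 2348 to 2965 in SEZ_GFP, 11181 to 11472 in SEZ_Prom and 3951 to 7043 in SEZ_CD24. The part of these lists in the results was not tested. Oligodendrocyte markers (9 genes) were highest in SEZ_Prom (34582 to 36397) and in DIEC_GFP (32012 to 45237), the group labelled astrocytes. Endothelial markers (9 genes) summed to at most 450 on any array, and Emcn was at an intensity of 10 or less on all 14 arrays. Fibroblast markers (10 genes) summed to 241 to 302 in SEZ_GFPprom, 350 to 377 in SEZ_GFP, 404 to 687 in SEZ_Prom, 474 to 832 in SEZ_CD24 and 227 to 263 in DIEC_GFP. In such bulk samples, fewer cells of a type and less RNA per cell cannot be told apart. The log2 ratio of 3' to 5' signal of the Gapdh and beta-actin control probe sets also moved with the groups, being 4.78 to 5.17 in SEZ_GFPprom, 4.63 and 4.82 in SEZ_GFP, 4.67 and 4.58 in SEZ_Prom, 4.94 and 5.35 in SEZ_CD24, and 5.04 to 5.74 in DIEC_GFP.

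**Figure D1:**
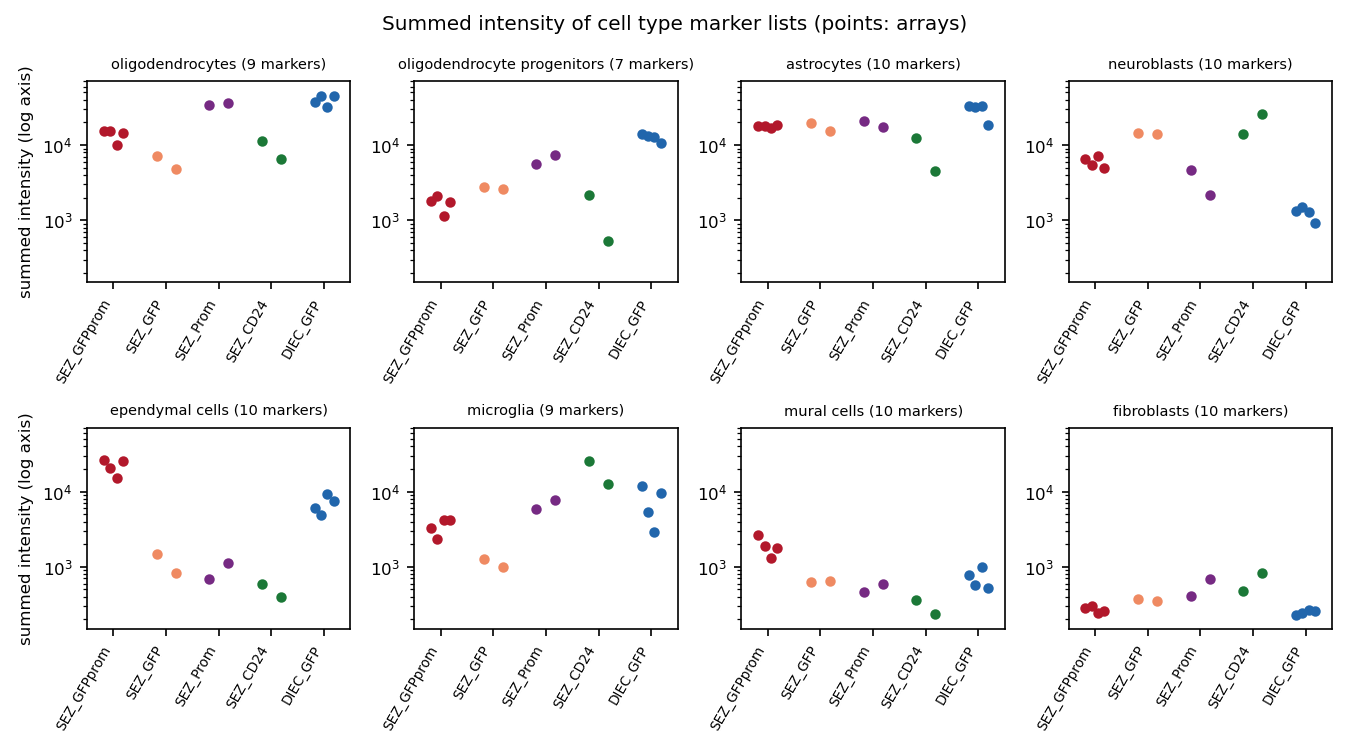
Summed linear intensity (log axis) of 8 cell type marker lists on each of the 14 arrays, grouped by sort; each point is an array. The ependymal list is highest on the SEZ_GFPprom arrays and lowest on the SEZ_CD24 arrays, and the oligodendrocyte list is highest in SEZ_Prom and DIEC_GFP.

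Differences between the sorts were widespread among the matrix genes, a list chosen with earlier results of these data known. In a limma fit of all 14 arrays, with Benjamini-Hochberg adjustment across the 18193 genes and a threshold of 0.05, 25 of 40 members differed among the 5 groups, against a background of 25.8% of all genes. Of the 40, DIEC_GFP had the highest group mean for 16 and SEZ_CD24 the lowest for 16. A total of 57 member calls were made in the 6 comparisons, and the groups overlapped for 2 of them, Nid1 and Tnr in SEZ_GFPprom against DIEC_GFP. Neither the highest and lowest groups nor the overlaps were counted over all genes, so these counts cannot set the matrix genes apart. Of the 14 members called in none of the 6, 6 were called under at least 1 alternative analysis, namely Adamts1, Bcan, Cspg5, Lamc1, Reln and Spock3. Counts of members under alternative analyses are given throughout without the share of all genes under the same setting. They therefore cannot tell a change in the matrix genes from a change in all genes. A difference is the log2 value of the group named first minus that of the second.

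Against DIEC_GFP, SEZ_GFPprom was called for 12 of 40 members (background 17.8%), 3 of them higher (background 10.1%) and 9 lower (background 7.78%). The median difference of the members was -0.34, against 0.08 for all genes. With the 3' to 5' ratio as a covariate 3 members were called, namely Hapln2, Matn4 and Lamb1. SEZ_GFP against DIEC_GFP gave 10 calls (background 12.7%), 2 higher (background 5.61%) and 8 lower (background 7.05%), with medians of -0.64 for members and 0.00 for all genes. Without SEZ_GFP replicate 1 this count was 5, without replicate 2 it was 4, and with the covariate it was 5. SEZ_GFPprom against SEZ_GFP gave 5 calls (background 3.17%), 2 higher (background 2.63%) and 3 lower (background 0.539%), with medians of 0.28 and 0.07, and 2 calls without SEZ_GFP replicate 2.

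The remaining comparisons were within the SEZ. SEZ_GFPprom against SEZ_Prom gave 8 calls (background 7.16%), 3 higher (background 4.4%) and 5 lower (background 2.76%). The median was 0.12 for members and 0.04 for all genes. Without SEZ_Prom replicate 1, 1 call was made, without replicate 2, 2 calls, and without SEZ_GFPprom replicate 1, 2 or 4, 5, 4 and 5 calls. SEZ_GFPprom against SEZ_CD24 gave 15 calls (background 13.7%), 11 higher (background 8.98%) and 4 lower (background 4.74%), with medians of 0.67 for members and 0.10 for all genes. Without SEZ_CD24 replicate 2, 5 members were called. These were Vcan, Matn2, Lamb1, Lamb2 and Col4a1. SEZ_Prom against SEZ_CD24 gave 7 calls (background 5.53%), 5 higher (background 3.43%) and 2 lower (background 2.1%), with medians of 0.40 and 0.07. Without SEZ_CD24 replicate 2, or without SEZ_Prom replicate 1 or 2, 3 members were called each time.

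**Figure D2:**
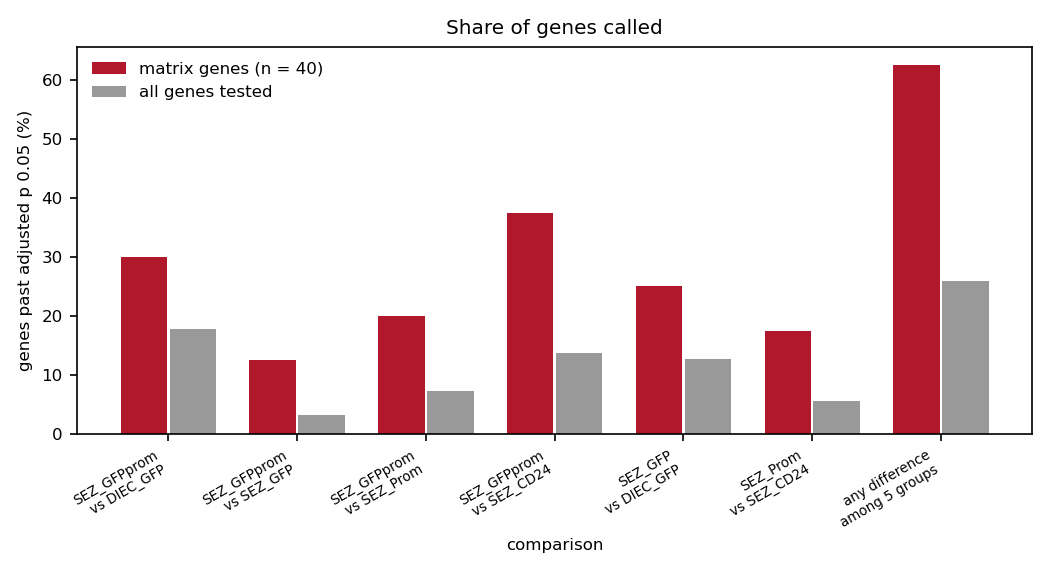
Percentage of the 40 matrix genes and of all 18193 genes past an adjusted p of 0.05 in each comparison and in the test over 5 groups. The matrix genes lie above the background in each, from 12.5% against 3.17% in SEZ_GFPprom against SEZ_GFP to 62.5% against 25.8% over the 5 groups. The list was chosen with earlier results of these data known, so a share above the background can reflect that choice.

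**Figure D3:**
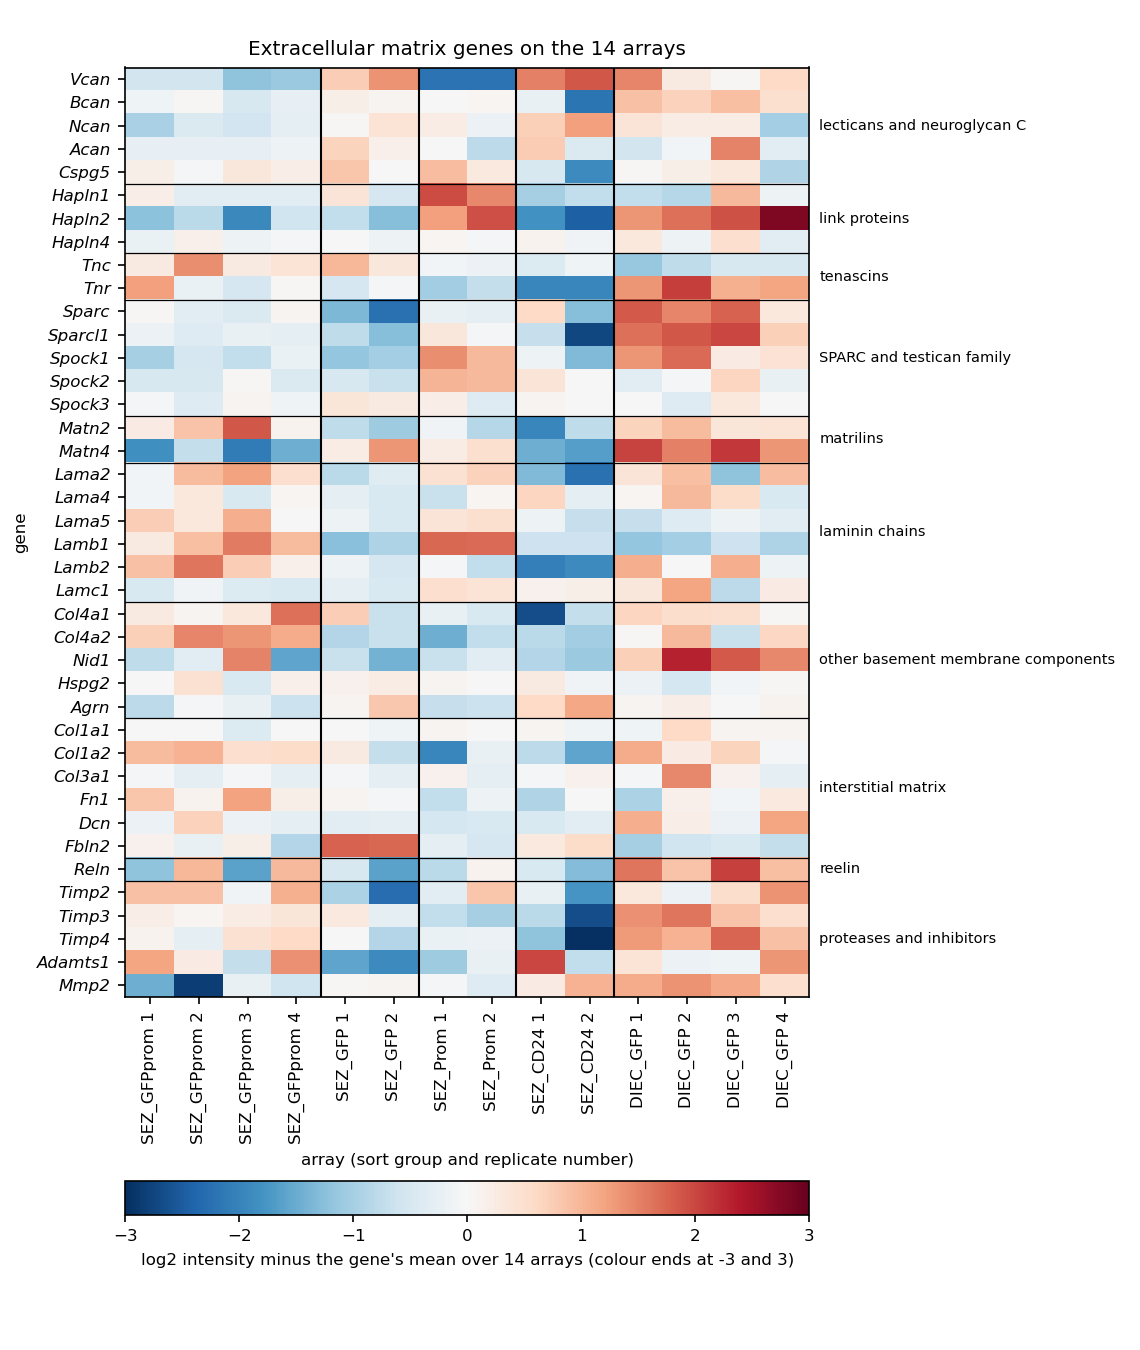
Log2 intensity of each matrix gene on each of the 14 arrays, minus the gene's mean over all arrays, with genes ordered by role and arrays by sort group (the colour scale ends at -3 and 3). Blocks of colour within a group show genes whose replicates agree, such as Matn4 and Hapln2, and SEZ_CD24 replicate 2 is lower than replicate 1 for several genes.

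Vcan, which encodes the large lectican versican, was lower in SEZ_GFPprom than in every group except SEZ_Prom. Its log2 intensities were 6.52, 6.54, 5.88 and 5.98 on the SEZ_GFPprom arrays, 7.81 and 8.42 on the SEZ_GFP arrays, 4.86 and 4.86 on the SEZ_Prom arrays, 8.59 and 8.95 on the SEZ_CD24 arrays, and 8.55, 7.36, 7.11 and 7.69 on the DIEC_GFP arrays. SEZ_Prom was the lowest group and SEZ_CD24 the highest, with no overlap between SEZ_GFPprom and any other group. The difference of SEZ_GFPprom was -2.54 ± 0.36 (SE, adjusted p = 0.000992) from SEZ_CD24, -1.89 ± 0.36 (SE, adjusted p = 0.0137) from SEZ_GFP and -1.45 ± 0.30 (SE, adjusted p = 0.00678) from DIEC_GFP. Against SEZ_Prom it was 1.37 ± 0.36 (SE, adjusted p = 0.0433), a call that was lost in 13 of 24 alternative analyses, and the mean of the gene's probe sets gave 0.13. SEZ_Prom stood -3.91 ± 0.42 (SE, adjusted p = 0.00149) from SEZ_CD24, a 15-fold lower level and the largest difference of any member in the 6 comparisons. For Vcan, the call of SEZ_GFPprom against SEZ_GFP was not made without SEZ_GFP replicate 2 (adjusted p = 0.25), nor with the mean of its probe sets (-0.59, adjusted p = 0.171) or the replicate number as a block (-1.60, adjusted p = 0.0608). The call against SEZ_Prom was not made without SEZ_GFPprom replicate 1, 2 or 4, SEZ_GFP replicate 1 or 2, SEZ_Prom replicate 1 or 2, SEZ_CD24 replicate 1 or 2, or DIEC_GFP replicate 4 (adjusted p = 0.0504 to 0.214). The neuroblast marker list moved with the contrast of SEZ_GFPprom with SEZ_CD24. There 8 of its 10 genes were lower in SEZ_GFPprom (sums of 4910 to 7186 against 14157 to 25759). The list includes Cd24a, the gene of the antigen on which SEZ_CD24 was sorted. Against DIEC_GFP (sums of 932 to 1515) it moved opposite to Vcan, 8 of its 10 genes being higher in SEZ_GFPprom. The sums were 14190 to 14389 in SEZ_GFP and 2195 to 4650 in SEZ_Prom. The part of this list in the Vcan results was not tested.

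The other lecticans gave fewer calls. Ncan (neurocan) averaged 8.60 ± 0.29 (SD, n = 4) in SEZ_GFPprom and 10.13 ± 0.36 (SD, n = 2) in SEZ_CD24, a difference of -1.54 ± 0.37 (SE, adjusted p = 0.0181), but neither of its other 2 probe sets passed in that comparison. It was not called without SEZ_CD24 replicate 2 (adjusted p = 0.166). Bcan (brevican), a lectican of glia around synapses, averaged 11.17 ± 0.22 (SD, n = 4) in SEZ_GFPprom and 12.12 ± 0.19 (SD, n = 4) in DIEC_GFP and was called only over the 5 groups (adjusted p = 0.0306), a call not made without SEZ_GFP replicate 1 or 2, SEZ_Prom replicate 1 or 2, or DIEC_GFP replicate 1, 2 or 3 (adjusted p = 0.0512 to 0.0681). With shared-sequence probe sets left out, Bcan was lower in SEZ_GFPprom than in DIEC_GFP, with a difference of -1.92 (adjusted p = 0.00704). Acan (aggrecan), the lectican of perineuronal nets, averaged 4.02 ± 0.04 (SD, n = 4) in SEZ_GFPprom and 4.38 ± 0.92 (SD, n = 4) in DIEC_GFP, and it passed in no comparison. Cspg5, the transmembrane proteoglycan neuroglycan C, passed in none either, with 7.40 ± 0.16 (SD, n = 4) in SEZ_GFPprom, 6.04 ± 1.01 (SD, n = 2) in SEZ_CD24 and 7.15 ± 0.55 (SD, n = 4) in DIEC_GFP.

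Hapln2, a link protein of the nodes of Ranvier, was at a low level in SEZ_GFPprom, SEZ_GFP and SEZ_CD24 and at a high level in SEZ_Prom and DIEC_GFP. Its log2 intensities were 5.39, 5.83, 4.70 and 6.04 on the SEZ_GFPprom arrays, 5.88 and 5.36 on the SEZ_GFP arrays, 7.87 and 8.56 on the SEZ_Prom arrays, 4.81 and 4.17 on the SEZ_CD24 arrays, and 7.95, 8.29, 8.54 and 9.42 on the DIEC_GFP arrays. Every SEZ_Prom and DIEC_GFP array lay above every array of the other 3 groups. SEZ_GFPprom differed by -3.06 ± 0.36 (SE, adjusted p = 0.000317) from DIEC_GFP, an 8.33-fold lower level, and by -2.72 ± 0.45 (SE, adjusted p = 0.00393) from SEZ_Prom. SEZ_GFP differed by -2.93 ± 0.45 (SE, adjusted p = 0.00146) from DIEC_GFP, and SEZ_Prom by 3.73 ± 0.51 (SE, adjusted p = 0.00402) from SEZ_CD24. Its other probe set was also lower in SEZ_GFPprom than in DIEC_GFP, with a difference of -2.08 (adjusted p = 0.00332 over probe sets). Both differences from DIEC_GFP were called in all 24 alternatives. The difference from SEZ_Prom was not called without SEZ_Prom replicate 2 (adjusted p = 0.0611). The oligodendrocyte marker list moved the same way, and its part in the result was not tested. Of its 9 genes, 7 were lower in SEZ_GFPprom than in DIEC_GFP, 5 were lower in SEZ_GFPprom than in SEZ_Prom, and 8 were higher in SEZ_Prom than in SEZ_CD24, with sums of 10136 to 15314 in SEZ_GFPprom, 4745 to 7077 in SEZ_GFP and 6485 to 11416 in SEZ_CD24.

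Hapln1, the link protein first known from cartilage, was high in 1 group. Its values were 4.52, 4.00, 4.00 and 4.00 on the SEZ_GFPprom arrays, 4.70 and 3.81 on the SEZ_GFP arrays, 6.27 and 5.75 on the SEZ_Prom arrays, 3.32 and 3.58 on the SEZ_CD24 arrays, and 3.58, 3.46, 5.29 and 4.17 on the DIEC_GFP arrays. Both SEZ_Prom arrays lay above all other arrays. SEZ_GFPprom differed by -1.88 ± 0.45 (SE, adjusted p = 0.0275) from SEZ_Prom, and SEZ_Prom by 2.56 ± 0.52 (SE, adjusted p = 0.0196) from SEZ_CD24, but none of the gene's other 3 probe sets passed. Hapln1 lost the first call without SEZ_GFPprom replicate 2 or 4, or SEZ_Prom replicate 1 or 2 (adjusted p = 0.0554 to 0.222) and the second without SEZ_Prom replicate 1 or 2, or SEZ_CD24 replicate 1 or 2 (adjusted p = 0.0624 to 0.114). Hapln4, a link protein that accompanies brevican, averaged 4.79 ± 0.16 (SD, n = 4) in SEZ_GFPprom and 4.94 ± 0.39 (SD, n = 4) in DIEC_GFP and passed in no comparison. Although Vcan and Hapln1 are genomic neighbours, SEZ_Prom had the lowest Vcan values and the highest Hapln1 values.

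The tenascins lay on opposite sides of the diencephalic astrocyte sort. Tnc (tenascin C), a hexameric glycoprotein known from the adult neurogenic niche, had values of 5.21, 6.34, 5.21 and 5.36 on the SEZ_GFPprom arrays, 5.93 and 5.29 on the SEZ_GFP arrays, 4.86 and 4.75 on the SEZ_Prom arrays, 4.52 and 4.81 on the SEZ_CD24 arrays, and 3.81, 4.17, 4.46 and 4.46 on the DIEC_GFP arrays. All 4 SEZ_GFPprom and both SEZ_GFP arrays lay above the 4 DIEC_GFP arrays. Its difference from DIEC_GFP was 1.31 ± 0.27 (SE, adjusted p = 0.00688) in SEZ_GFPprom and 1.38 ± 0.33 (SE, adjusted p = 0.017) in SEZ_GFP. A dim other probe set of Tnc did not pass, and with the 3' to 5' ratio as a covariate neither difference was called (1.11 and 1.10, adjusted p = 0.108 and 0.284). In SEZ_GFP the call was also lost without SEZ_GFP replicate 1 (adjusted p = 0.194).

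Tnr (tenascin R), made by oligodendrocytes and some neurons, was highest in DIEC_GFP. Its values were 6.19, 4.75, 4.46 and 5.0 on the SEZ_GFPprom arrays, 4.46 and 4.91 on the SEZ_GFP arrays, 3.91 and 4.25 on the SEZ_Prom arrays, 3.00 and 3.00 on the SEZ_CD24 arrays, and 6.29, 7.03, 6.02 and 6.15 on the DIEC_GFP arrays. Both SEZ_CD24 arrays were the lowest, and SEZ_GFPprom replicate 1 alone lay among the DIEC_GFP arrays. SEZ_GFPprom differed by -1.27 ± 0.34 (SE, adjusted p = 0.0257) from DIEC_GFP and by 2.10 ± 0.42 (SE, adjusted p = 0.00741) from SEZ_CD24, and SEZ_GFP by -1.69 ± 0.42 (SE, adjusted p = 0.0214) from DIEC_GFP. With values under an intensity of 10 set to 10, the difference from SEZ_CD24 was 1.78. The call against DIEC_GFP was lost without DIEC_GFP replicate 2 (-1.05, adjusted p = 0.0753), and without SEZ_GFPprom replicate 2, 3 or 4 (adjusted p = 0.0706, 0.0654 and 0.0578). Tnr also lost the call of SEZ_GFP without SEZ_GFP replicate 1 or 2 (adjusted p = 0.0925 to 0.179), and that against SEZ_CD24 without SEZ_CD24 replicate 2 (adjusted p = 0.0588). All 7 markers of oligodendrocyte progenitors were lower in SEZ_GFPprom than in DIEC_GFP, with sums of 1147 to 2090 against 10582 to 14115. Their sums were 5572 to 7294 in SEZ_Prom, above those of SEZ_GFPprom, although Tnr averaged 4.08 there against 5.10 in SEZ_GFPprom. In SEZ_GFP they were 2636 to 2795 and in SEZ_CD24 532 to 2143. The part of these markers in the Tnr results was not tested.

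Sparc, a collagen-binding glycoprotein, and Sparcl1, the astrocytic synapse-promoting protein hevin, were both lower in the GFP-sorted SEZ groups than in the GFP-sorted diencephalon. Sparc had values of 11.54, 11.19, 11.09 and 11.59 on the SEZ_GFPprom arrays, 10.15 and 9.26 on the SEZ_GFP arrays, 11.30 and 11.25 on the SEZ_Prom arrays, 12.12 and 10.24 on the SEZ_CD24 arrays, and 13.36, 12.98, 13.28 and 11.84 on the DIEC_GFP arrays. The SEZ_GFP arrays were the lowest, followed by SEZ_CD24 replicate 2, and DIEC_GFP replicate 4, the array with the low astrocyte sum, lay below SEZ_CD24 replicate 1. The difference from DIEC_GFP was -1.51 ± 0.42 (SE, adjusted p = 0.0289) in SEZ_GFPprom and -3.15 ± 0.51 (SE, adjusted p = 0.00219) in SEZ_GFP, and the second of these was called in all 24 alternatives. The first was lost without DIEC_GFP replicate 1, 2 or 3 (-1.34, -1.47 and -1.37, adjusted p = 0.0776, 0.0709 and 0.0678) and without SEZ_GFPprom replicate 2 or 3 (adjusted p = 0.0696 and 0.0657). Of its 2 other probe sets, 1 was lower as well, at -1.97 for SEZ_GFPprom and -3.67 for SEZ_GFP (adjusted p = 0.023 and 0.00323 over probe sets).

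Sparcl1 had values of 10.64, 10.43, 10.60 and 10.55 on the SEZ_GFPprom arrays, 10.06 and 9.55 on the SEZ_GFP arrays, 11.15 and 10.78 on the SEZ_Prom arrays, 10.14 and 8.09 on the SEZ_CD24 arrays, and 12.48, 12.68, 12.81 and 11.53 on the DIEC_GFP arrays. DIEC_GFP lay above every other array, and its replicate 4 was the lowest of that group, as it was for Sparc. The difference from DIEC_GFP was -1.82 ± 0.39 (SE, adjusted p = 0.00864) in SEZ_GFPprom and -2.57 ± 0.48 (SE, adjusted p = 0.00463) in SEZ_GFP. The second call was lost without SEZ_GFP replicate 2 (adjusted p = 0.076). Astrocyte markers also moved with these contrasts, 4 of 10 being lower in SEZ_GFPprom and 4 of 10 in SEZ_GFP than in DIEC_GFP. Their sums were 17020 to 18706 in SEZ_GFPprom and 15286 to 19544 in SEZ_GFP, against 32042 to 33168 in DIEC_GFP replicates 1 to 3 and 18343 in replicate 4, and their part in the result was not tested.

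The testicans are secreted proteoglycans that carry a SPARC-like calcium-binding domain. Spock1 (testican 1), like Hapln2, was high in SEZ_Prom and DIEC_GFP, which is why the upstream windows of both were printed. Its values were 5.46, 5.93, 5.70 and 6.25 on the SEZ_GFPprom arrays, 5.29 and 5.43 on the SEZ_GFP arrays, 7.84 and 7.42 on the SEZ_Prom arrays, 6.30 and 5.13 on the SEZ_CD24 arrays, and 7.77, 8.14, 6.69 and 6.88 on the DIEC_GFP arrays. Both SEZ_Prom arrays and all DIEC_GFP arrays lay above all arrays of the other groups. SEZ_GFPprom differed by -1.79 ± 0.43 (SE, adjusted p = 0.028) from SEZ_Prom and by -1.54 ± 0.35 (SE, adjusted p = 0.0116) from DIEC_GFP, and SEZ_GFP by -2.02 ± 0.43 (SE, adjusted p = 0.00932) from DIEC_GFP. SEZ_Prom against SEZ_CD24 gave 1.91 ± 0.49 (SE, adjusted p = 0.0461), a call lost in 15 of 24 alternatives, among them those without SEZ_GFPprom replicate 1, 2, 3 or 4, SEZ_GFP replicate 1 or 2, SEZ_Prom replicate 1 or 2, SEZ_CD24 replicate 2, or DIEC_GFP replicate 1 (adjusted p = 0.0536 to 0.287). The call against SEZ_Prom was lost without SEZ_GFPprom replicate 1 or 2, or SEZ_Prom replicate 1 or 2 (adjusted p = 0.0501 to 0.217), and that of SEZ_GFP against DIEC_GFP without SEZ_GFP replicate 1 or 2 (adjusted p = 0.0773 to 0.0811). Its second probe set was lower as well in SEZ_GFPprom than in DIEC_GFP (-1.83, adjusted p = 0.00454 over probe sets).

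Spock2 was also highest in SEZ_Prom, with 4.79 ± 0.26 (SD, n = 4) in SEZ_GFPprom and 6.13 ± 0.03 (SD, n = 2) in SEZ_Prom, a difference of -1.34 ± 0.27 (SE, adjusted p = 0.0123) that was not called without SEZ_Prom replicate 1 or 2 (adjusted p = 0.085 to 0.103). The other probe set of Spock2 did not show this difference, averaging 4.26 in SEZ_GFPprom and 4.17 in SEZ_Prom. For Spock3 the 2 probe sets disagreed as well. The brightest by mean log2 value lay between 4.00 and 4.75 on all 14 arrays and passed in no comparison. On the other one every SEZ_Prom array (6.02 and 5.75) and DIEC_GFP array (5.09, 7.02, 5.0 and 5.52) lay above every array of the other 3 groups. Both SEZ_GFP arrays, SEZ_GFPprom replicates 2 and 4 and SEZ_CD24 replicate 2 were under an intensity of 10 there, so no differences are given.

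Matn4 (matrilin 4), one of the adaptor proteins that join matrix filaments and proteoglycans, differed most between SEZ_GFPprom and DIEC_GFP. Its values were 5.04, 6.19, 4.81 and 5.43 on the SEZ_GFPprom arrays, 7.11 and 8.23 on the SEZ_GFP arrays, 7.11 and 7.38 on the SEZ_Prom arrays, 5.43 and 5.25 on the SEZ_CD24 arrays, and 8.93, 8.40, 9.01 and 8.22 on the DIEC_GFP arrays. The SEZ_GFPprom and SEZ_CD24 arrays lay below all others, SEZ_GFP and SEZ_Prom lay between, and DIEC_GFP was highest, with SEZ_GFP replicate 2 reaching its lower edge. SEZ_GFPprom differed by -3.27 ± 0.33 (SE, adjusted p = 0.000117) from DIEC_GFP, a 9.67-fold lower level that was called in all 24 alternatives. It differed by -2.30 ± 0.40 (SE, adjusted p = 0.00726) from SEZ_GFP and by -1.87 ± 0.40 (SE, adjusted p = 0.0167) from SEZ_Prom, and SEZ_Prom by 1.90 ± 0.46 (SE, adjusted p = 0.037) from SEZ_CD24. The difference from SEZ_GFP was -1.74 (adjusted p = 0.17) without SEZ_GFP replicate 2, and the last call was lost in 10 of 24 alternatives, among them those without SEZ_GFPprom replicate 4, SEZ_Prom replicate 1 or 2, or SEZ_CD24 replicate 1 or 2 (adjusted p = 0.0523 to 0.179). The call against SEZ_Prom was lost without SEZ_Prom replicate 1 or 2 (adjusted p = 0.0972 to 0.132). Matn2 (matrilin 2) did not share this order, being higher in SEZ_GFPprom (5.0, 5.61, 6.63 and 4.86 on the SEZ_GFPprom arrays) than in SEZ_CD24 (2.81 and 4.00 on the SEZ_CD24 arrays) by 2.12 ± 0.47 (SE, adjusted p = 0.0124), or by 1.86 with low values set to 10. It was not called without SEZ_CD24 replicate 1 (adjusted p = 0.123).

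**Figure D4:**
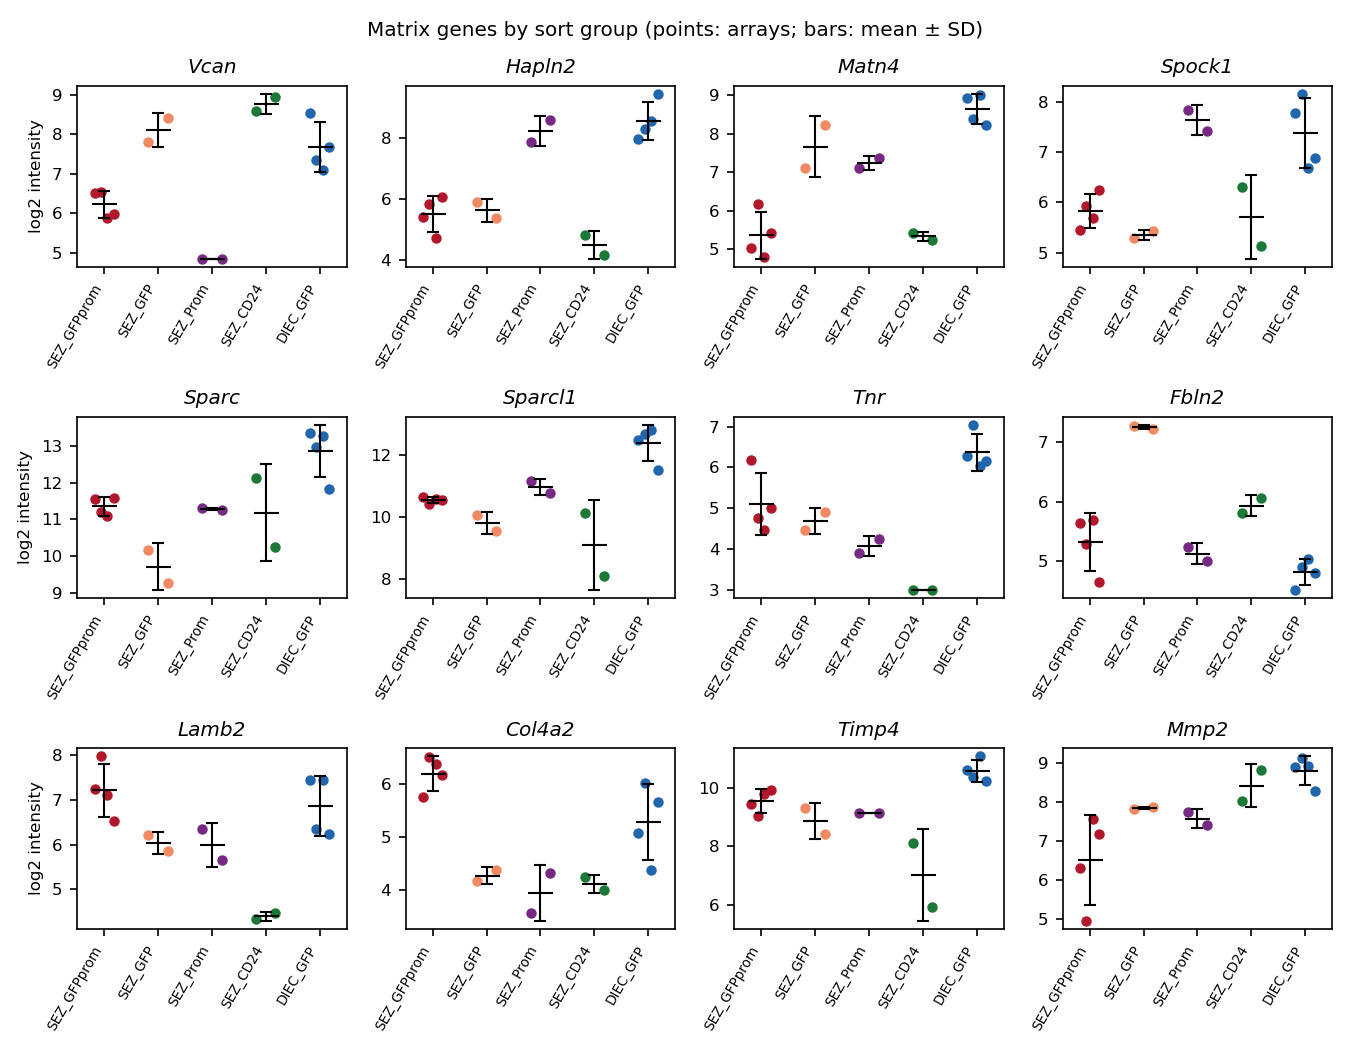
Log2 intensity of 12 matrix genes by sort group, with a point for each array and bars for the mean ± SD (n = 4, 2, 2, 2 and 4, left to right). Hapln2 and Spock1 are high in SEZ_Prom and DIEC_GFP, Fbln2 is high in SEZ_GFP, Col4a2 is highest in SEZ_GFPprom, and Vcan is lowest in SEZ_Prom.

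Laminins are trimers of an alpha, a beta and a gamma chain. Lamb2, the beta 2 chain, had values of 7.24, 7.98, 7.12 and 6.52 on the SEZ_GFPprom arrays, 6.21 and 5.86 on the SEZ_GFP arrays, 6.34 and 5.64 on the SEZ_Prom arrays, 4.32 and 4.46 on the SEZ_CD24 arrays, and 7.46, 6.36, 7.45 and 6.23 on the DIEC_GFP arrays. SEZ_CD24 was lowest, with all 12 other arrays above it, and SEZ_GFPprom differed from it by 2.83 ± 0.44 (SE, adjusted p = 0.00169), a 7.09-fold higher level and a call made in all 24 alternatives. Lama2, the alpha 2 chain, averaged 7.45 ± 0.56 (SD, n = 4) in SEZ_GFPprom and 5.04 ± 0.64 (SD, n = 2) in SEZ_CD24, a difference of 2.42 ± 0.55 (SE, adjusted p = 0.0143). It was 1.96 (adjusted p = 0.154) without SEZ_CD24 replicate 2.

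Lamb1, the beta 1 chain, was high in both prominin sorts. Its values were 5.52, 6.17, 6.82 and 6.21 on the SEZ_GFPprom arrays, 4.00 and 4.32 on the SEZ_GFP arrays, 6.99 and 6.97 on the SEZ_Prom arrays, 4.64 and 4.64 on the SEZ_CD24 arrays, and 4.09, 4.25, 4.64 and 4.32 on the DIEC_GFP arrays. Every SEZ_GFPprom and SEZ_Prom array lay above every array of the other 3 groups. SEZ_GFPprom differed by 2.02 ± 0.29 (SE, adjusted p = 0.00194) from SEZ_GFP, 1.86 ± 0.24 (SE, adjusted p = 0.000493) from DIEC_GFP and 1.54 ± 0.29 (SE, adjusted p = 0.00538) from SEZ_CD24, and SEZ_Prom by 2.33 ± 0.34 (SE, adjusted p = 0.00494) from SEZ_CD24. These values rest on a probe set whose name marks sequence shared between transcripts. Without such probe sets the brightest one for Lamb1 gave differences of -0.0021 from SEZ_GFP, 0.28 from DIEC_GFP and 0.35 from SEZ_CD24 for SEZ_GFPprom (adjusted p = 1, 0.179 and 0.194), and of 0.0060 for SEZ_Prom from SEZ_CD24 (adjusted p = 1). A dimmer probe set gave 0.96 from DIEC_GFP (adjusted p = 0.0233 over probe sets).

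Lama5, the alpha 5 chain, had values of 5.58, 5.17, 5.93 and 4.86 on the SEZ_GFPprom arrays, 4.70 and 4.39 on the SEZ_GFP arrays, 5.25 and 5.32 on the SEZ_Prom arrays, 4.70 and 4.17 on the SEZ_CD24 arrays, and 4.17, 4.46, 4.70 and 4.52 on the DIEC_GFP arrays. The SEZ_GFPprom arrays lay above those of DIEC_GFP and SEZ_CD24 and overlapped those of SEZ_Prom. The differences of SEZ_GFPprom were 0.92 ± 0.23 (SE, adjusted p = 0.0188) from DIEC_GFP and 0.95 ± 0.28 (SE, adjusted p = 0.0458) from SEZ_CD24. The first was lost without DIEC_GFP replicate 1 (0.82, adjusted p = 0.0518), and the second in 19 of 23 alternatives, among them those without SEZ_GFPprom replicate 1, 2 or 3, SEZ_GFP replicate 1 or 2, SEZ_Prom replicate 1 or 2, SEZ_CD24 replicate 1 or 2, or DIEC_GFP replicate 2, 3 or 4 (adjusted p = 0.0501 to 0.338). Lamc1, the gamma chain common to many laminins, averaged 4.75 ± 0.17 (SD, n = 4) in SEZ_GFPprom and 5.36 ± 0.80 (SD, n = 4) in DIEC_GFP, and Lama4, an alpha chain of vessel laminins, averaged 3.22 ± 0.32 (SD, n = 4) in SEZ_GFPprom and 3.55 ± 0.62 (SD, n = 4) in DIEC_GFP. Neither was called in any comparison.

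Col4a1 and Col4a2 encode the chains of the commonest type IV collagen. Col4a2 had values of 5.75, 6.51, 6.38 and 6.17 on the SEZ_GFPprom arrays, 4.17 and 4.39 on the SEZ_GFP arrays, 3.58 and 4.32 on the SEZ_Prom arrays, 4.25 and 4.00 on the SEZ_CD24 arrays, and 5.09, 6.02, 4.39 and 5.67 on the DIEC_GFP arrays. SEZ_GFPprom was highest, overlapping only the DIEC_GFP arrays, and the other SEZ sorts lay below all its arrays. SEZ_GFPprom differed by 2.25 ± 0.40 (SE, adjusted p = 0.00591) from SEZ_Prom, 2.08 ± 0.40 (SE, adjusted p = 0.00559) from SEZ_CD24 and 1.92 ± 0.40 (SE, adjusted p = 0.0203) from SEZ_GFP. The difference from DIEC_GFP was 0.91 ± 0.32 (SE, adjusted p = 0.0752). Without SEZ_GFP replicate 1 or 2 the difference from SEZ_GFP was 1.81 or 2.03 (adjusted p = 0.168 and 0.155), and without SEZ_GFPprom replicate 2 it was 1.82 (adjusted p = 0.0526). The call against SEZ_Prom was not made without SEZ_Prom replicate 1 (adjusted p = 0.0974), nor that against SEZ_CD24 without SEZ_CD24 replicate 2 (adjusted p = 0.0597).

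Col4a1, whose start overlaps that of Col4a2 on the other strand, had values of 7.73, 7.55, 7.79 and 9.13 on the SEZ_GFPprom arrays, 8.20 and 6.79 on the SEZ_GFP arrays, 7.24 and 7.01 on the SEZ_Prom arrays, 4.81 and 6.74 on the SEZ_CD24 arrays, and 8.10, 8.0, 7.94 and 7.50 on the DIEC_GFP arrays. The SEZ_Prom and SEZ_CD24 arrays lay below all SEZ_GFPprom arrays, and those of SEZ_CD24 were far apart. The difference of SEZ_GFPprom from SEZ_CD24 was 2.28 ± 0.56 (SE, adjusted p = 0.021), and it was 1.31 (adjusted p = 0.208) without SEZ_CD24 replicate 1. From SEZ_GFP it was 0.55 ± 0.56 (SE, adjusted p = 0.735). Of the 10 mural cell markers, 3 were called higher in SEZ_GFPprom than in SEZ_CD24, 2 than in SEZ_GFP, 2 than in SEZ_Prom and 3 than in DIEC_GFP. None was called lower, but the differences were negative for 1, 4, 4 and 3 of the 10 in these comparisons. The medians were 0.61, 0.29, 0.06 and 0.38 in the same order. The sums were 1324 to 2612 in SEZ_GFPprom, against 637 to 651 in SEZ_GFP, 464 to 584 in SEZ_Prom, 233 to 368 in SEZ_CD24 and 530 to 983 in DIEC_GFP. The ependymal list moved with SEZ_GFPprom, 10 of 10 markers being higher than in each of the other SEZ sorts. The parts of these lists in the laminin and collagen results were not tested.

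Nid1 (nidogen 1), the link between laminin and type IV collagen, was high in DIEC_GFP. Its values were 3.81, 4.25, 6.07 and 3.00 on the SEZ_GFPprom arrays, 3.91 and 3.17 on the SEZ_GFP arrays, 3.91 and 4.25 on the SEZ_Prom arrays, 3.70 and 3.46 on the SEZ_CD24 arrays, and 5.29, 6.89, 6.41 and 6.02 on the DIEC_GFP arrays. SEZ_GFPprom replicate 3 lay among the DIEC_GFP arrays, and the other SEZ arrays lay below them. The difference from DIEC_GFP was -2.61 ± 0.67 (SE, adjusted p = 0.025) in SEZ_GFP and -1.87 ± 0.55 (SE, adjusted p = 0.0364) in SEZ_GFPprom, and the second call was lost in 11 of 23 alternatives. It was -1.79 (adjusted p = 0.0546) with values under 10 set to 10, and it was not called without SEZ_GFPprom replicate 1, 2 or 4, SEZ_Prom replicate 1 or 2, or DIEC_GFP replicate 2, 3 or 4 (adjusted p = 0.0505 to 0.103). The first was lost without SEZ_GFP replicate 1 or 2 (adjusted p = 0.0833 and 0.229) and without DIEC_GFP replicate 2 (-2.37, adjusted p = 0.0604).

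Agrn (agrin), a heparan sulphate proteoglycan that organises the neuromuscular synapse, was highest in SEZ_CD24. Its values were 8.48, 9.22, 9.02 and 8.61 on the SEZ_GFPprom arrays, 9.34 and 10.06 on the SEZ_GFP arrays, 8.55 and 8.61 on the SEZ_Prom arrays, 9.84 and 10.41 on the SEZ_CD24 arrays, and 9.34, 9.45, 9.23 and 9.36 on the DIEC_GFP arrays. SEZ_CD24 and SEZ_GFP replicate 2 lay above the remaining arrays. SEZ_GFPprom differed from SEZ_CD24 by -1.30 ± 0.26 (SE, adjusted p = 0.00745) and SEZ_Prom by -1.54 ± 0.30 (SE, adjusted p = 0.0174), and without SEZ_CD24 replicate 2 these were -1.01 and -1.26 (adjusted p = 0.103 and 0.118). The second call was also lost without SEZ_Prom replicate 1 or 2 (adjusted p = 0.0893 and 0.0882). Hspg2 (perlecan), the main basement membrane heparan sulphate proteoglycan, averaged 8.24 ± 0.37 (SD, n = 4) in SEZ_GFPprom and 8.01 ± 0.25 (SD, n = 4) in DIEC_GFP and was called nowhere.

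The interstitial matrix gave few calls. Fbln2 (fibulin 2), a secreted glycoprotein that binds basement membrane and elastic fibre proteins, was high in SEZ_GFP. Its values were 5.64, 5.29, 5.70 and 4.64 on the SEZ_GFPprom arrays, 7.28 and 7.23 on the SEZ_GFP arrays, 5.25 and 5.0 on the SEZ_Prom arrays, 5.81 and 6.07 on the SEZ_CD24 arrays, and 4.52, 4.91, 5.04 and 4.81 on the DIEC_GFP arrays. The SEZ_GFP arrays lay above all 12 others, and the SEZ_CD24 arrays came next. SEZ_GFPprom differed from SEZ_GFP by -1.93 ± 0.27 (SE, adjusted p = 0.00176), a 3.82-fold lower level, and SEZ_GFP from DIEC_GFP by 2.43 ± 0.27 (SE, adjusted p = 0.000248), a 5.4-fold higher level. Both were called in all 23 alternatives that gave a value. Neuroblast markers moved with the contrast of SEZ_GFP with DIEC_GFP, 10 of 10 being higher (sums of 14190 to 14389 against 932 to 1515), and with that of SEZ_GFPprom with SEZ_GFP, where all 10 differences were negative (median -1.49, sums of 4910 to 7186 against 14190 to 14389) and 1 of 10 passed the test. On the SEZ_CD24 arrays these markers summed to 14157 to 25759, although Fbln2 lay below its SEZ_GFP values there. The part of the neuroblast markers in the Fbln2 results was not tested.

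Col1a2, the alpha 2 chain of type I collagen, had values of 8.11, 8.19, 7.67 and 7.72 on the SEZ_GFPprom arrays, 7.43 and 6.44 on the SEZ_GFP arrays, 5.21 and 6.93 on the SEZ_Prom arrays, 6.38 and 5.58 on the SEZ_CD24 arrays, and 8.28, 7.40, 7.83 and 7.11 on the DIEC_GFP arrays. The SEZ_GFPprom arrays lay above all SEZ_GFP, SEZ_Prom and SEZ_CD24 arrays and overlapped those of DIEC_GFP. SEZ_GFPprom differed by 1.94 ± 0.48 (SE, adjusted p = 0.02) from SEZ_CD24 and by 1.85 ± 0.48 (SE, adjusted p = 0.0385) from SEZ_Prom. Neither of the gene's other 2 probe sets passed. The second call was lost in 9 of 24 alternatives, and that difference was 0.99 (adjusted p = 0.386) without SEZ_Prom replicate 1. It was not called either without SEZ_GFPprom replicate 1, 2 or 4 (adjusted p = 0.0844, 0.0788 and 0.0581). The first was 1.55 (adjusted p = 0.196) without SEZ_CD24 replicate 2. Its partner chain Col1a1 averaged 3.61 ± 0.19 (SD, n = 4) in SEZ_GFPprom and 3.88 ± 0.31 (SD, n = 4) in DIEC_GFP and was called nowhere.

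Col3a1, the chain of type III collagen, averaged 2.70 ± 0.13 (SD, n = 4) in SEZ_GFPprom and 3.18 ± 0.78 (SD, n = 4) in DIEC_GFP. Fn1 (fibronectin), an integrin ligand, averaged 6.12 ± 0.53 (SD, n = 4) in SEZ_GFPprom and 5.39 ± 0.56 (SD, n = 4) in DIEC_GFP. Dcn (decorin), a small proteoglycan of collagen fibrils, averaged 4.94 ± 0.45 (SD, n = 4) in SEZ_GFPprom and 5.50 ± 0.67 (SD, n = 4) in DIEC_GFP. None of these 3 was called in any comparison. Of the 10 fibroblast markers, Lum, Slc47a1 and Aldh1a2 were at an intensity of 10 or less on all SEZ_GFPprom arrays, and the other 7 were above it on at least 1.

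Reln encodes reelin, the secreted signal that positions migrating neurons through the receptors Lrp8 and Vldlr. Its values were 5.09, 7.31, 4.70 and 7.28 on the SEZ_GFPprom arrays, 5.83 and 4.70 on the SEZ_GFP arrays, 5.49 and 6.41 on the SEZ_Prom arrays, 5.86 and 5.0 on the SEZ_CD24 arrays, and 7.91, 7.15, 8.35 and 7.20 on the DIEC_GFP arrays. SEZ_GFPprom split into a low and a high pair, the high pair reaching the DIEC_GFP arrays, and the difference between these groups was -1.56 ± 0.61 (SE, adjusted p = 0.101). The high pair, replicates 2 and 4, also had the higher choroid plexus marker sums of its group. Across the groups the list did not follow Reln. Its sums were 12880 and 13426 in SEZ_Prom and 14865 and 9212 in SEZ_CD24. In DIEC_GFP replicates 1 to 3, where Reln was higher than in those 2 groups, they were 1734, 2382 and 1208. The part of that list was not tested. Reln was called in none of the 6 comparisons, the nearest being SEZ_GFP against DIEC_GFP with -2.39 ± 0.74 (SE, adjusted p = 0.057), which passed in 6 alternatives (adjusted p = 0.0206 to 0.0465).

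Among protease inhibitors, Timp4 had values of 9.43, 9.04, 9.78 and 9.92 on the SEZ_GFPprom arrays, 9.30 and 8.43 on the SEZ_GFP arrays, 9.13 and 9.15 on the SEZ_Prom arrays, 8.12 and 5.93 on the SEZ_CD24 arrays, and 10.60, 10.37, 11.07 and 10.21 on the DIEC_GFP arrays. Its DIEC_GFP arrays were highest and SEZ_CD24 replicate 2 lowest. SEZ_GFPprom differed by 2.52 ± 0.50 (SE, adjusted p = 0.00724) from SEZ_CD24, which was 1.42 (adjusted p = 0.0813) without SEZ_CD24 replicate 2. SEZ_GFP differed by -1.70 ± 0.50 (SE, adjusted p = 0.0465) from DIEC_GFP, a call lost in 15 of 24 alternatives, among them those without SEZ_GFPprom replicate 1, 2, 3 or 4, SEZ_GFP replicate 1 or 2, SEZ_Prom replicate 1 or 2, or DIEC_GFP replicate 1, 2 or 3 (adjusted p = 0.0531 to 0.376). Timp3, the inhibitor bound to the matrix, averaged 9.51 ± 0.12 (SD, n = 4) in SEZ_GFPprom and 7.56 ± 1.32 (SD, n = 2) in SEZ_CD24, a difference of 1.95 ± 0.44 (SE, adjusted p = 0.0133) that was 1.01 (adjusted p = 0.167) without the same array. Timp2, which also takes part in the activation of Mmp2, averaged 8.19 ± 0.94 (SD, n = 2) in SEZ_GFP and 10.31 ± 0.63 (SD, n = 4) in DIEC_GFP, a difference of -2.12 ± 0.57 (SE, adjusted p = 0.0307), or -1.46 (adjusted p = 0.341) without SEZ_GFP replicate 2. It was not called either without DIEC_GFP replicate 1, 3 or 4 (adjusted p = 0.0508, 0.054 and 0.0537). Timp2 was highest in SEZ_GFPprom, at 10.49 ± 0.54 (SD, n = 4), which was 2.30 above SEZ_GFP. That difference was not called in the main fit. It passed with array weights (2.38, adjusted p = 0.0104) and with the 3' to 5' ratio as a covariate (2.84, adjusted p = 0.00277).

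Astrocyte markers moved with the contrast of SEZ_GFPprom with SEZ_CD24, 6 of 10 being higher, with sums of 17020 to 18706 in SEZ_GFPprom against 12572 and 4539 in SEZ_CD24. Their part in the TIMP results was not tested.

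Mmp2 (gelatinase A) was lower in SEZ_GFPprom. Its values were 6.30, 4.95, 7.55 and 7.17 on the SEZ_GFPprom arrays, 7.81 and 7.86 on the SEZ_GFP arrays, 7.73 and 7.39 on the SEZ_Prom arrays, 8.02 and 8.81 on the SEZ_CD24 arrays, and 8.89, 9.12, 8.91 and 8.27 on the DIEC_GFP arrays. The SEZ_GFPprom arrays spread widely, replicate 2 being the lowest of all arrays, and all lay below those of DIEC_GFP. SEZ_GFPprom differed by -2.30 ± 0.46 (SE, adjusted p = 0.0062) from DIEC_GFP and by -1.92 ± 0.57 (SE, adjusted p = 0.0447) from SEZ_CD24, and the second call was lost in 15 of 24 alternatives, among them those without SEZ_GFPprom replicate 1, SEZ_GFP replicate 1 or 2, SEZ_Prom replicate 1 or 2, SEZ_CD24 replicate 1 or 2, or DIEC_GFP replicate 1, 2 or 3 (adjusted p = 0.0543 to 0.305). A second probe set gave -2.12 from DIEC_GFP (adjusted p = 0.00751 over probe sets). Adamts1, a protease that cuts lecticans, averaged 8.66 ± 0.96 (SD, n = 4) in SEZ_GFPprom and 6.38 ± 0.22 (SD, n = 2) in SEZ_GFP and did not pass in any of the 6 comparisons. Its difference of SEZ_GFPprom from SEZ_GFP was 2.27 ± 0.75 (SE, adjusted p = 0.153), but it passed with array weights (2.42, adjusted p = 0.0231) and with the 3' to 5' ratio as a covariate (2.98, adjusted p = 0.0116). With that covariate it also passed against SEZ_Prom (2.20, adjusted p = 0.0449). SEZ_GFP differed from DIEC_GFP by -2.10 ± 0.75 (SE, adjusted p = 0.0934), which passed in 6 alternatives, among them the covariate (-4.30, adjusted p = 0.0077).

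**Figure D5:**
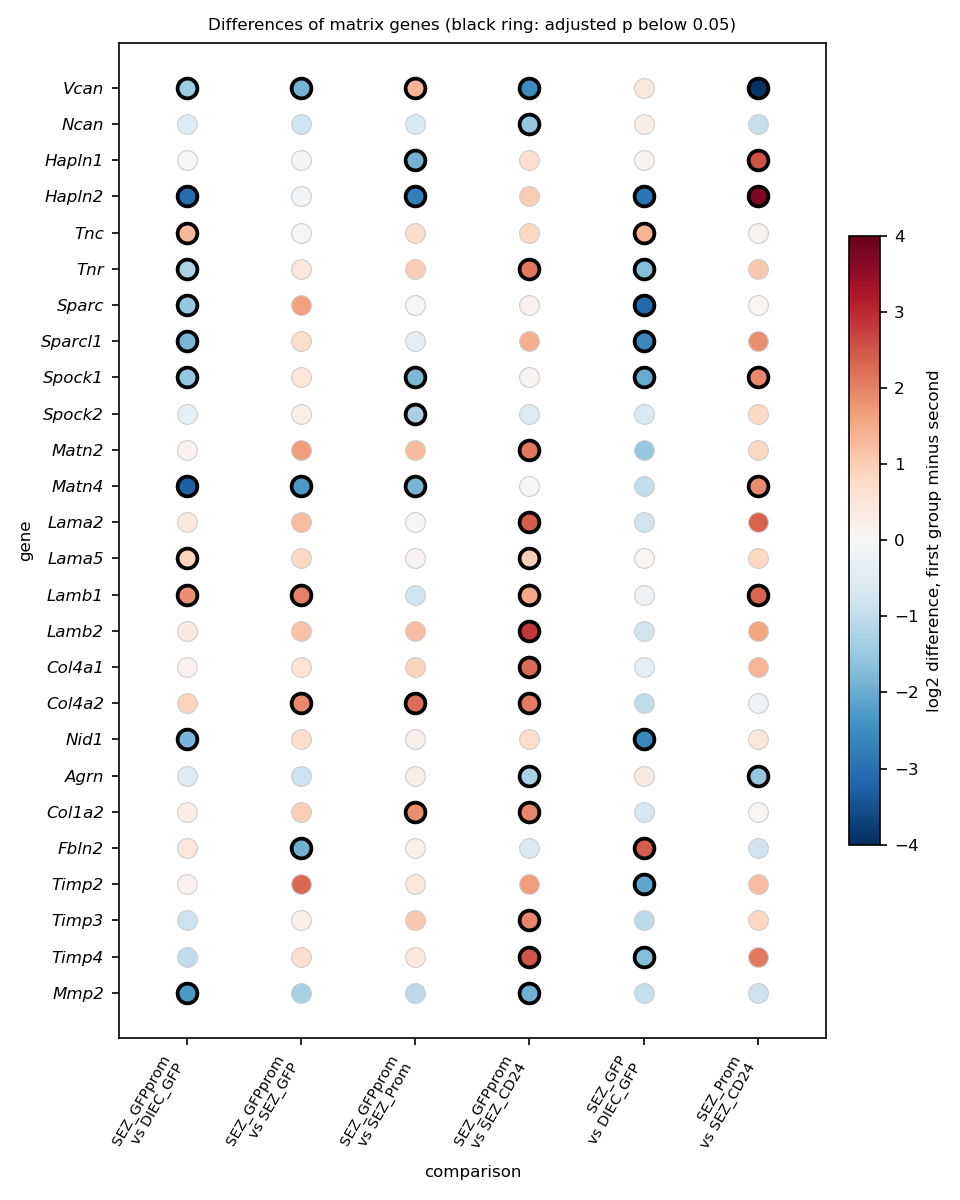
Log2 difference (first group minus second, colour scale from -4 to 4) of the 26 matrix genes called in at least 1 of the 6 comparisons, which run along the x axis; a black ring marks an adjusted p below 0.05. Vcan has a ring in 5 comparisons, Hapln2, Spock1, Matn4 and Lamb1 in 4 each, and the SEZ_GFPprom against SEZ_CD24 column holds 15 rings.

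Other genes of the matrix pathway were described by lists of receptors, cell surface heparan sulphate proteoglycans, glycosaminoglycan enzymes, collagen-processing enzymes, further proteases and inhibitors, and further matrix proteins. In SEZ_GFPprom against DIEC_GFP, where all genes had a median difference of 0.08 and the background was 17.8% called (10.1% higher and 7.78% lower), the collagen-processing list had 1 of 13 genes higher and 5 lower, with a median of -0.52. The prolyl hydroxylase P4ha1 was lower, with a difference of -2.57 ± 0.39 (SE, adjusted p = 0.00141). So were its partner subunit P4hb, at -1.14 ± 0.18 (SE, adjusted p = 0.00154), and the lysyl hydroxylase Plod1, at -1.50 ± 0.24 (SE, adjusted p = 0.00171). Of 25 glycosaminoglycan genes 1 was higher and 4 were lower (median -0.25), among them Sulf1, the extracellular heparan sulphate 6-O-endosulphatase, at -3.70 ± 0.55 (SE, adjusted p = 0.00132). Ext1, a heparan sulphate polymerase subunit, was higher, at 0.92 ± 0.19 (SE, adjusted p = 0.00735).

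The receptor list had 2 of 23 genes higher and 4 lower in that comparison (median -0.15). Lrp8, a reelin receptor, was higher at 1.43 ± 0.23 (SE, adjusted p = 0.0021), and the integrin chain Itgav lower at -1.46 ± 0.31 (SE, adjusted p = 0.008). Of 10 surface proteoglycans 1 was higher and 2 were lower (median -0.31). The higher one was the glypican Gpc4, at 1.34 ± 0.30 (SE, adjusted p = 0.00995). The lower ones were Sdc3, at -1.04 ± 0.26 (SE, adjusted p = 0.0174), and Sdc2, at -1.07 ± 0.27 (SE, adjusted p = 0.0204). Of 18 further proteases and inhibitors 1 was higher and 4 were lower (median -0.39), including the lysosomal protease Ctsb at -1.61 ± 0.21 (SE, adjusted p = 0.00055) and the lectican-cutting Adamts4 at -1.72 ± 0.37 (SE, adjusted p = 0.00816). Among 29 further matrix proteins 2 were higher and 3 lower (median 0.13), which is 17.2% called. Spon1 (F-spondin) was lower at -1.93 ± 0.21 (SE, adjusted p = 0.000211), and Lama3, another laminin alpha chain, higher at 2.17 ± 0.41 (SE, adjusted p = 0.00447).

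Lama3 was higher in SEZ_GFPprom than in each other SEZ sort too, by 3.91 ± 0.50 (SE, adjusted p = 0.000494) against SEZ_CD24, 3.36 ± 0.50 (SE, adjusted p = 0.00247) against SEZ_GFP and 2.66 ± 0.50 (SE, adjusted p = 0.00879) against SEZ_Prom. In SEZ_GFPprom against SEZ_CD24, where the median of all genes was 0.10 and 8.98% were higher and 4.74% lower, the lists had 5 of 23 receptors higher and 2 lower (median 0.57), and 4 of 13 collagen-processing genes called, each of them higher (median -0.13). Ptprz1, the receptor phosphatase that binds tenascins and contactins, was higher by 1.63 ± 0.23 (SE, adjusted p = 0.00103), and the collagen chaperone Serpinh1 by 2.14 ± 0.48 (SE, adjusted p = 0.0126). Efemp1 (fibulin 3) was higher by 3.30 ± 0.65 (SE, adjusted p = 0.0068). With values under an intensity of 10 set to 10, the difference from SEZ_CD24 was 2.96 for Efemp1 (adjusted p = 0.0249) and 3.75 for Lama3 (adjusted p = 0.0022).

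Against SEZ_GFP, SEZ_GFPprom had lower Lrp8, at -1.77 ± 0.29 (SE, adjusted p = 0.00471), and higher tissue plasminogen activator Plat, at 2.44 ± 0.38 (SE, adjusted p = 0.00351). Lrp8 was the 1 receptor of 23 called there (median 0.29, all genes 0.07, background 3.17%). Against SEZ_Prom 1 of 23 receptors was called, Ptprz1, higher by 1.87 ± 0.23 (SE, adjusted p = 0.000728), where the list's median was 0.27 and that of all genes 0.04 (background 7.16%), and Adamts4 was lower at -2.13 ± 0.45 (SE, adjusted p = 0.0158). SEZ_GFP against DIEC_GFP had 2 of 23 receptors higher and 5 lower (median -0.44, all genes 0.00, background 5.61% higher and 7.05% lower), with Lrp8 higher by 3.20 ± 0.29 (SE, adjusted p = 8.63e-05), and 5 of 13 collagen-processing genes called, each of them lower (median -0.82). In SEZ_Prom against SEZ_CD24, 1 of 23 receptors was higher and 2 were lower (median 0.24, all genes 0.07, background 3.43% higher and 2.1% lower), with Lrp8 at -2.15 ± 0.33 (SE, adjusted p = 0.00639) and Ptprs, a receptor phosphatase for chondroitin and heparan sulphate, at -2.23 ± 0.40 (SE, adjusted p = 0.0122).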

How the data were processed

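RNA of 14 sorted samples was amplified in 2 rounds and hybridised to Affymetrix MOE430 2.0 arrays, per the labels' protocols. The authors deposited linear whole-number intensity values, made with RMA per the submitters' processing notes (version not given in the sources used here). They ran from 3 to 18925 with a median of 27 on every array. These were taken to log2 with no pseudocount. The platform annotation gave 34945 of 45101 probe sets 1 gene symbol, 932 several and 9160 none, and 64 more were controls of the array. Each of 18193 genes was its brightest probe set by mean log2 value, and 30 of the 40 members had several. The number of arrays limits the precision.

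A limma fit (limma 3.58.1, R 4.3.3) gave each of 5 groups a mean over all 14 arrays, with 9 residual degrees of freedom. The 6 comparisons were two-sided and the moderated F-test covered all groups, with Benjamini-Hochberg adjustment over all genes at 0.05. The procedure was tested on simulated data. Per-array values are given for members called in at least 2 comparisons or among the 2 highest or 2 lowest called differences of a comparison, and for Col4a1, Matn2 and Reln, chosen after their values were seen. Of each pathway list, up to 3 called genes per comparison with the smallest adjusted p could be named. The members and lists were chosen with earlier results of these data known. Alternatives varied the probe set, floor, filter, normalization, covariate, groups, weights, replicate block and arrays.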

Additional observations from a re-analysis of the deposited data

Results flagged for a closer look

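Within groups of 4 arrays, an array was singled out where its gap to the nearest other array exceeded Dixon's critical value as a share of the group's range. This held for 9 of 80 sets of a gene in a group, and for continuous values chance alone flags about 1 in 20. The deposited intensities are whole numbers, so ties near background can set a flag. For Acan, Hapln1 and Col1a1 all other arrays of the group were equal. With such ties the share expected by chance is not known here, and whether 9 of 80 exceeds it was not tested. In SEZ_GFPprom, replicate 2 was the highest for Tnc (6.34), Lamc1 (5.0) and Dcn (5.61), on the log2 scale. Replicate 4 was the highest for Col4a1 (9.13) and Acan (4.09), replicate 1 the highest for Hapln1 (4.52), and replicate 3 the highest for Spock2 (5.17) and the lowest for Col1a1 (3.32). In DIEC_GFP, replicate 4 was the lowest for Ncan (8.13).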

How the results depend on the processing

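Of the 57 member calls, 8 were made under every one of the 24 alternatives that gave a value, and 49 were lost under at least 1. The 8 were Hapln2 and Matn4 in SEZ_GFPprom against DIEC_GFP, Fbln2 in SEZ_GFPprom against SEZ_GFP, Vcan and Lamb2 in SEZ_GFPprom against SEZ_CD24, and Hapln2, Sparc and Fbln2 in SEZ_GFP against DIEC_GFP. Without probe sets of shared sequence, Lamb1 in SEZ_GFPprom against SEZ_GFP turned to -0.0021, as another probe set, near an intensity of 10, then stood for it. With the 3' to 5' ratio as a covariate, members called numbered 3 in SEZ_GFPprom against DIEC_GFP, 5 in SEZ_GFP against DIEC_GFP and 3 in SEZ_Prom against SEZ_CD24. With only the groups compared in the fit, which leaves fewer arrays, they numbered 3 in SEZ_GFPprom against SEZ_GFP, 6 in SEZ_GFPprom against SEZ_CD24 and 0 in SEZ_Prom against SEZ_CD24, where limma gave 14 at an unadjusted p under 0.05. The share of all genes at that unadjusted threshold was not computed. Without the dimmer 50% of genes, which removes members too, 3 were called in SEZ_GFPprom against SEZ_GFP and 5 in SEZ_GFPprom against SEZ_Prom. Array weights gave 10 in SEZ_GFPprom against SEZ_GFP, and averaging each gene's probe sets gave 5 in SEZ_GFPprom against SEZ_Prom. The cause of these shifts was not tested. Leaving out 1 array at a time gave 9 to 15 calls in SEZ_GFPprom against DIEC_GFP, 2 to 6 against SEZ_GFP, 1 to 9 against SEZ_Prom and 5 to 16 against SEZ_CD24. It gave 4 to 13 in SEZ_GFP against DIEC_GFP, 3 to 10 in SEZ_Prom against SEZ_CD24 and 19 to 26 over the 5 groups. Where this left 1 array in a group, that array was assumed to vary like the other groups. With the replicate number as a block, 44 of 57 calls were made and no count moved by over 1.5 times. Same-numbered arrays deviated together little (r from -0.188 to 0.129 over 22 pairs), and the labels do not say whether equal numbers mark a shared sort or animal. The brightest probe set by mean linear intensity, an alternative chosen after seeing the data, gave all 57 calls. It also called Spock3, through its other probe set, in SEZ_GFPprom against DIEC_GFP and against SEZ_Prom. Spock3 was called as well in SEZ_GFP against DIEC_GFP and over the 5 groups.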
